A study of Mus musculus with 32 samples.

Results

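Toll-like receptors are membrane proteins with which innate immune cells recognise molecules of microbes. Tlr1, Tlr2 and Tlr6 sit at the cell surface, where Tlr2 pairs with Tlr1 or Tlr6 to bind bacterial lipoproteins, Tlr4 binds lipopolysaccharide and Tlr5 binds flagellin. Tlr3, Tlr7, Tlr8, Tlr9 and Tlr13 act in endosomes and read nucleic acids. Bound receptors signal through the adaptor MyD88, or through TRIF in the case of Tlr3 and of internalised Tlr4, and end in NF-kappaB and interferon regulatory factors. In blood they are known from monocytes, neutrophils, dendritic cells and B cells, and in brain above all from microglia. The members were the 10 mouse genes Tlr1 to Tlr9 and Tlr13, taken at probe sets that carry only that gene's name in the array's annotation, and 9 of the 10 had such a probe set, each exactly 1, among 35556 probe sets and 19938 genes. Tlr5 was not analysed here.

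RNA from blood and from cerebellum was measured in 16 mice of 2 mouse models of autism-related disorders, on 32 arrays with probes along the whole transcript. The first experiment held 5 Fmr1-KO mice, which lack the fragile X gene, and 5 wild-type (WT) mice, all congenic on C57BL/6. The second held 3 Tsc2+/- mice, heterozygous for a loss of the tuberous sclerosis gene Tsc2 because loss of both copies is lethal to the embryo, and 3 WT mice, all on a mixed 129/SvJae and C57BL/6J background. All mice were young adults, with blood and cerebellum from each, and every level below is a PLIER intensity, a linear probe-set summary, relative within a gene but not between genes. The labels give the mice as female and the study's methods as male. On all 32 arrays the Y-linked gene Eif2s3y lay between 226 and 875 and Xist between 17.3 and 106, which is the pattern of male mice.

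In cerebellum of the Fmr1-experiment WT mice, all 7 measured markers of cerebellar neurons were higher, and all 8 of B cells, 7 of T cells and 5 of erythroid cells lower, than in blood at a Benjamini-Hochberg adjusted limma p under 0.05. Fmr1 intensity averaged 221 ± 43.0 in Fmr1-KO blood and 549 ± 130 in WT blood, and 261 ± 67.2 in Fmr1-KO cerebellum and 858 ± 36.4 in WT cerebellum (SD, n = 5 each). Tsc2 averaged 822 ± 155 in Tsc2+/- cerebellum and 1137 ± 34.8 in WT cerebellum (SD, n = 3 each) without overlap, and 724 ± 145 in Tsc2+/- blood and 826 ± 158 in WT blood with overlap. The median intensity of the cerebellum arrays lay between 181 and 257 and that of the blood arrays between 134 and 186. The Fmr1-KO mouse 1 cerebellum array had the highest median and correlated with its group at 0.882, against 0.935 to 0.968 for the other cerebellum arrays. Among blood arrays, the summed intensity of 5 platelet markers was 3224 in Tsc2+/- mouse 2 and 2238 in the WT mouse 3 of the same experiment, and 41501 or more in the other 14. The summed neutrophil markers were 3523 and 6679 in those 2 arrays and 27314 in Tsc2+/- mouse 3. In whole blood, fewer cells of a type and less RNA per cell cannot be told apart.

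The promoters of 5 receptors on which the results below turn are shown from RefSeq (GRCm38.p6), 250 bases before to 50 after the start site. Tlr3 is shown because it alone was higher in cerebellum, Tlr6, Tlr8 and Tlr9 because their Tsc2+/- blood values lay above all WT values, and Tlr13 for its wide range among Tsc2+/- mice. Capitals mark matches to 3 motifs searched on both strands, where N is any base: the PU.1 core GAGGAA, the interferon response core GAAANNGAA and the NF-kappaB core GGGNNTTTC. PU.1 is a transcription factor of myeloid and B cells.
Tlr3 promoter, chr8:45410331-45410630, minus strand: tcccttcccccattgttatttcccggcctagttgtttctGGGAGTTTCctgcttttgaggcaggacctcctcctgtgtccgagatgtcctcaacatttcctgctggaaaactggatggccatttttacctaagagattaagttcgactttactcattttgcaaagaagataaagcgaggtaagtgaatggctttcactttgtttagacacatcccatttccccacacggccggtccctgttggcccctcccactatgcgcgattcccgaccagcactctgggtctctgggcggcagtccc
Tlr6 promoter (first of 2), chr5:64959117-64959416, minus strand: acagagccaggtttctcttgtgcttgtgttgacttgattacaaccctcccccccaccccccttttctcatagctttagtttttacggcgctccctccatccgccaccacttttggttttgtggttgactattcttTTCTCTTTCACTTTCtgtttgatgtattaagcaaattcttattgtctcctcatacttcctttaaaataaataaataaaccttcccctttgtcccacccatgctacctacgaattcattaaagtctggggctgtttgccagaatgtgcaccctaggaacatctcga
Tlr8 promoter, chrX:167264280-167264579, minus strand: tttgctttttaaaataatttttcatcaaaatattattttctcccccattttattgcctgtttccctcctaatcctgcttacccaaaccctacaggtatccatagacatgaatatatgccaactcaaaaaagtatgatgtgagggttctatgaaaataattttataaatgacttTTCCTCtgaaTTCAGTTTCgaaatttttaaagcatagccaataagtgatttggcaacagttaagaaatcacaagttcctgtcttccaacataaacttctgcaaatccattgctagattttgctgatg
Tlr9 promoter, chr9:106222348-106222647, plus strand: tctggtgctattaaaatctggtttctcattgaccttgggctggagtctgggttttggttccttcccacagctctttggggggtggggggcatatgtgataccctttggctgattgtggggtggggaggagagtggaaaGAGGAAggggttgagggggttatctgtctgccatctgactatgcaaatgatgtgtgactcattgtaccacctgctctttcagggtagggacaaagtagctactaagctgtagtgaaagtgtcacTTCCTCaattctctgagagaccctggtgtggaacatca
Tlr13 promoter, chrX:106143025-106143324, plus strand: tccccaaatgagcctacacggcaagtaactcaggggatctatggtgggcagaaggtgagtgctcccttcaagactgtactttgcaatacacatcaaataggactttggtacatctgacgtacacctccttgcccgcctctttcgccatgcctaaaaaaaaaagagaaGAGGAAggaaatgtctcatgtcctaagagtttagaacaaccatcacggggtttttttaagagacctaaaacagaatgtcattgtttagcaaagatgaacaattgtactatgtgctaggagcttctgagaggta

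The PU.1 core occurred at -77 to -72 in Tlr8, at -112 to -107 and 13 to 18 in Tlr9 and at -83 to -78 in Tlr13, counted from the start site, and also at -23 to -18 in the first Tlr1 promoter. Of 32851 promoters of the same length, 28.3% held it. The NF-kappaB core stood at -211 to -203 in Tlr3 (4.36% of all promoters held it). The interferon response core (8.56% of all promoters) stood at -115 to -107 and -109 to -101 in the first of 2 Tlr6 promoters, the one shown, as 2 matches that overlap, and at -67 to -59 in Tlr8. The second Tlr6 promoter held none of the 3 motifs. A match is a description of the sequence and not of binding. Promoters of 8 members were in the table, with 10 start sites. Tlr4 and Tlr7 were not among them. Tlr1 and Tlr6 are neighbours on chromosome 5, and Tlr7 and Tlr8 on chromosome X, with no protein-coding gene between either pair. Tlr1 and Tlr6 are also close paralogs, and cross-hybridisation of their probes was not tested.

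The first comparison was between the tissues. Of the 9 receptors, 8 were lower in cerebellum than in blood of WT mice and Tlr3, the receptor of double-stranded RNA, was higher, in both experiments and without overlap between the tissues. All 9 passed an adjusted limma p under 0.05 in each experiment. Over all probe sets 19% were called lower and 42.1% higher in Fmr1-experiment WT mice, and 15.2% lower and 22.6% higher in Tsc2-experiment WT mice. The tissues did not overlap, with cerebellum lower or higher, for 15.6% and 35.5% of all probe sets in the first experiment and for 22.4% and 29.6% in the second. The median log2 difference of the 9 receptors was -2.82 and -3.69 in these experiments, beside 0.42 and 0.05 over all probe sets.

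Tlr3 had 422, 256, 226, 259 and 260 in cerebellum of the 5 Fmr1-experiment WT mice, against 90.0, 32.4, 67.8, 54.5 and 45.0 in their blood. In the 3 Tsc2-experiment WT mice it had 271, 296 and 419 in cerebellum, against 51.1, 84.1 and 94.3 in blood. Every cerebellum value lay above every blood value, and the log2 differences were 2.35 (SE 0.28) and 2.12 (SE 0.30). The cerebellum mean was 4.91 and 4.30 times the blood mean.

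Tlr13, which recognises bacterial ribosomal RNA, was lower in cerebellum. It had 57.3, 38.0, 23.5, 22.1 and 23.7 in Fmr1-experiment WT cerebellum, against 1065, 1361, 1144, 1082 and 972 in blood. The log2 difference was -5.19 (SE 0.26), and -4.75 (SE 0.38) in the Tsc2-experiment WT mice. For the single-stranded RNA receptor Tlr7 the differences were -4.78 (SE 0.35) and -4.39 (SE 0.29), and for its neighbour Tlr8 -2.60 (SE 0.15) and -2.37 (SE 0.20). The cell-surface partners of Tlr2 had -4.09 (SE 0.17) and -4.34 (SE 0.36) for Tlr1 and -3.34 (SE 0.19) and -3.71 (SE 0.23) for Tlr6. Tlr2 itself had -1.47 (SE 0.12) and -1.04 (SE 0.19), and the difference between these genes was not tested.

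**Figure D1:**
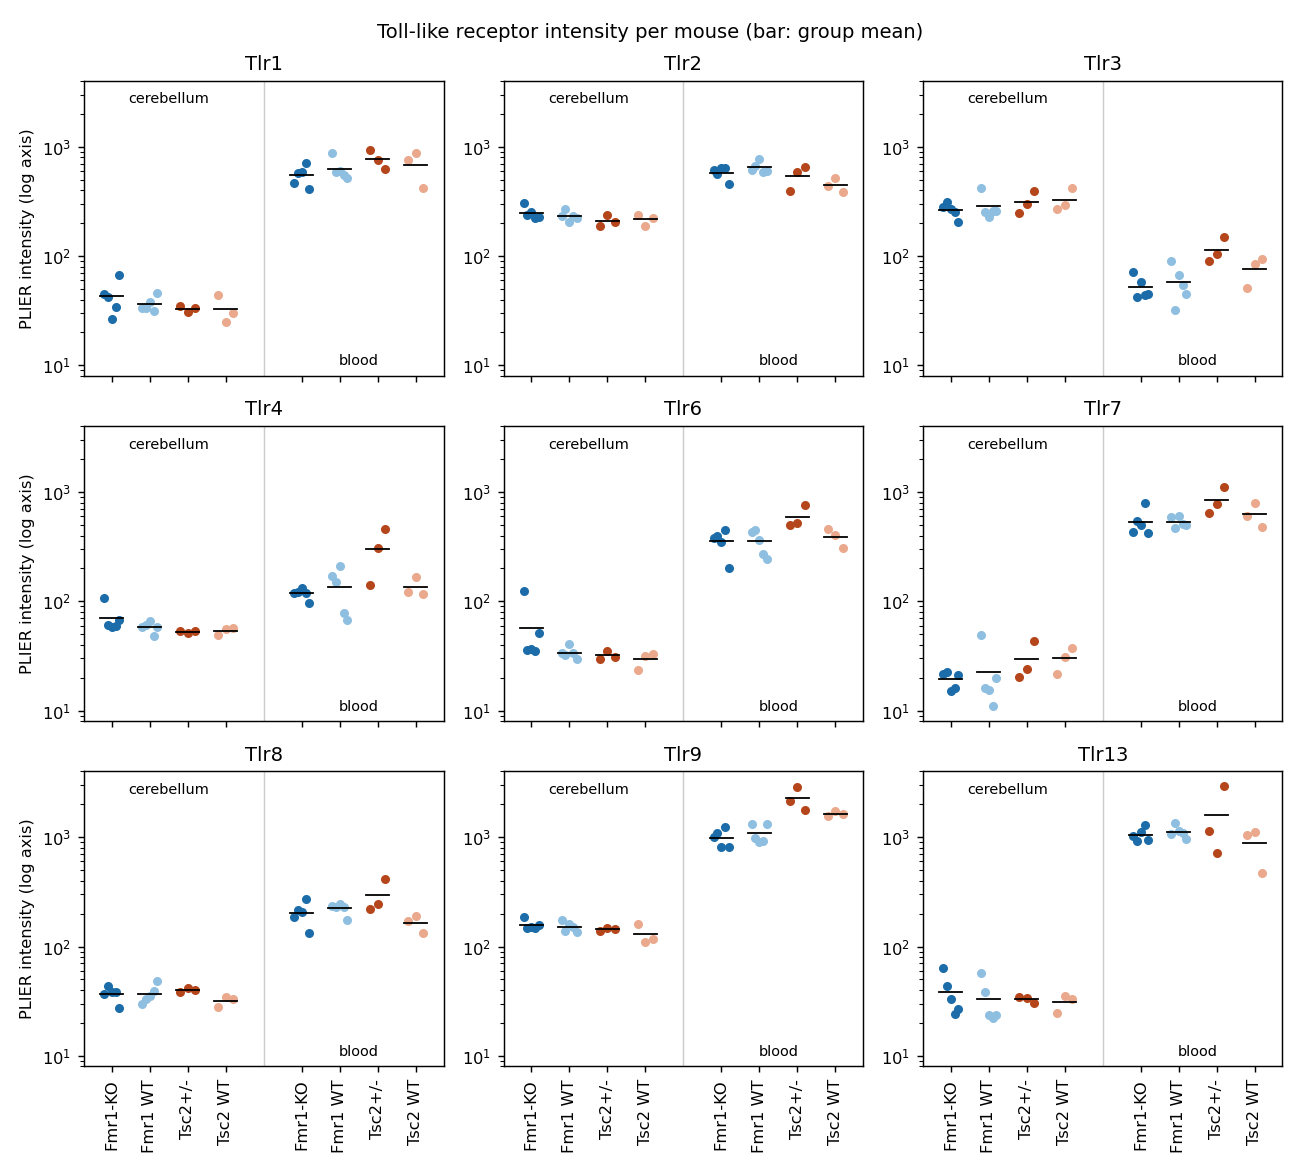
PLIER intensity (log axis) of each of the 9 receptors per mouse, cerebellum left and blood right, with each point 1 mouse and each bar a group mean. Tlr3 is the receptor whose cerebellum points lie above its blood points, at 205 to 422 in Fmr1-experiment cerebellum.

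The CpG DNA receptor Tlr9 had a cerebellum level of 137 to 173 in the Fmr1-experiment WT mice, against 899 to 1323 in blood. The log2 differences were -2.82 (SE 0.15) and -3.69 (SE 0.20). Tlr4 was lower at -1.09 (SE 0.31, limma adjusted p = 0.0117) and -1.31 (SE 0.19, limma adjusted p = 0.0030). Without the Fmr1-experiment WT mouse 2 the adjusted p of Tlr4 became 0.0506. Without the Tsc2-experiment WT mouse 2 those of Tlr4 and Tlr2 became 0.0576 and 0.128.

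As a measure of background, 1035 probe sets of olfactory receptor genes, which are thought to be silent in both tissues, had a median of 62.3 in cerebellum and 55.8 in blood. The geometric cerebellum means of Tlr1, Tlr6, Tlr7, Tlr8 and Tlr13 over 16 arrays were 36.1, 36.6, 22.2, 36.2 and 32.5, above only 9.66% to 23.0% of the olfactory probe sets. Tlr4 in cerebellum lay above 46.7% of them. Tlr2, Tlr3 and Tlr9 lay above 97.0%, 98.3% and 90.1%. In blood Tlr3 lay above 58.3% of them and the other 8 receptors above 89.4% to 100%. For Tlr1, Tlr4, Tlr6, Tlr7, Tlr8 and Tlr13 in cerebellum and for Tlr3 in blood, the level could not be told apart from this background. Tlr4 in blood, at a geometric mean of 143, also lay under the upper decile of the olfactory probe sets (146). Tlr9 in cerebellum, at a geometric mean of 147, lay at the upper decile of that tissue (146). The tissue differences of these receptors therefore depend on the background of each probe set, and their sizes were not ranked.

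**Figure D2:**
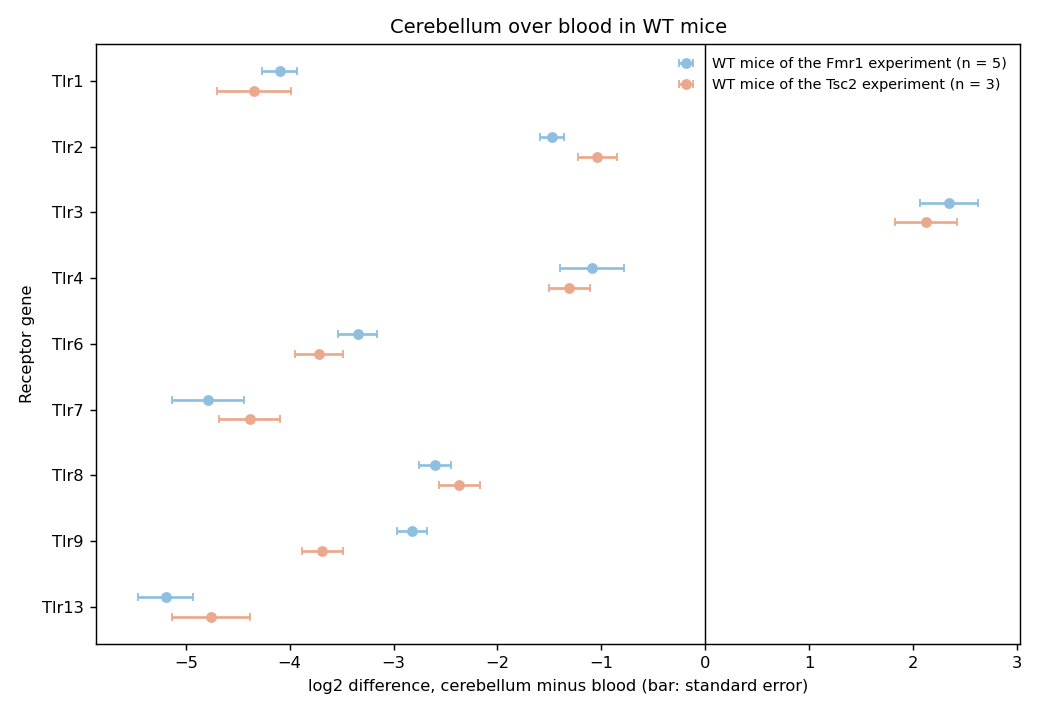
Log2 difference of cerebellum minus blood for each receptor in WT mice of the 2 experiments, with points the limma estimate and bars the standard error (n = 5 and n = 3 mice). Tlr3 lies right of 0 at 2.35 and 2.12, and the other 8 lie left of it.

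The genes that work with the receptors were compared between the tissues in the same way, beside 19% of all probe sets lower and 42.1% higher in the Fmr1-experiment WT mice and 15.2% and 22.6% in the Tsc2-experiment WT mice. Of 11 accessory proteins and co-receptors, 8 fell and 2 rose in the Fmr1-experiment WT mice, and 7 fell and 1 rose in the Tsc2-experiment WT mice. Unc93b1, which carries the endosomal receptors to their compartment, was lower by log2 differences of -3.69 and -3.77. Of 6 adaptors, 5 fell and 1 rose in each experiment. The adaptor that rose was Sarm1, at 4.43 and 3.74, a protein better known for axon degeneration, while Myd88 was at -2.93 and -2.56. The transcription factors gave 7 of 9 lower in both experiments, with 1 and 2 higher. Of 13 kinases and ubiquitin ligases 10 were lower in both, with 3 and 1 higher. The inhibitors gave 9 and 6 of 11 lower and the target cytokines 8 and 7 of 16, with none higher in either list. Ptprc, the pan-leukocyte antigen CD45, named after its values were seen, was 24.6 to 52.7 in all 8 WT cerebellum arrays and 2435 to 4488 in WT blood.

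The Tsc2+/- genotype was compared with WT in blood because the study asked whether blood carries the changes of brain. From these same arrays, the paper reported the pathway of Toll-like receptor signaling as enriched in Tsc2+/- blood by gene set enrichment. That test was not repeated here. All 9 receptors had a log2 difference above 0 in Tsc2+/- blood, as did 57.1% of all probe sets, with a median of 0.60 beside 0.04 over all. The median was the value of Tlr3, whose blood level could not be told apart from the olfactory background. Tlr4 in blood lay under the upper decile of that background. Tlr12, a Toll-like receptor gene outside the members, had a lower mean in Tsc2+/- than in WT blood. Its values were 164, 172 and 110 in Tsc2+/- blood, against 289, 277 and 121 in WT blood, with overlap. None of the 9 reached the unadjusted limma p under 0.01 that the study used (0.298% of all probe sets did), 2 had a p under 0.05 (2.14% of all), and all adjusted p rounded to 1.0. The 9 genes were measured in the same 6 blood samples, so that they are not independent of each other.

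Tlr8 had 218, 246 and 419 in Tsc2+/- blood, against 172, 191 and 134 in WT blood. The values did not overlap, and the log2 difference was 0.79 (SE 0.30, limma p = 0.0408, exact permutation p = 0.1). Tlr6 had 502, 521 and 765 in Tsc2+/- blood, against 454, 402 and 306 in WT blood, a difference of 0.61 (SE 0.25, limma p = 0.0489, exact permutation p = 0.1). Tlr9 had 2150, 2896 and 1761 in Tsc2+/- blood, against 1555, 1747 and 1628 in WT blood, a difference of 0.44 (SE 0.22, limma p = 0.0924, exact permutation p = 0.1). For these 3 receptors every Tsc2+/- mouse lay above every WT mouse, as for 4.36% of all probe sets. The two-sided exact p of 0.1 is the smallest that 3 against 3 mice allow.

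Tlr4 had 141, 309 and 459 in Tsc2+/- blood, against 121, 166 and 117 in WT blood. Only Tsc2+/- mouse 1 lay within the WT range, and the difference was 1.03 (SE 0.45, limma p = 0.0658, exact permutation p = 0.2). Without that mouse it was 1.50 (SE 0.28), and Tlr4 then passed the unadjusted threshold of 0.01. Without Tsc2+/- mouse 3 it was 0.65 (SE 0.40). Tlr13 had 1143, 716 and 2933 in Tsc2+/- blood, against 1049, 1121 and 473 in WT blood, so that the groups overlapped and the difference was 0.70 (SE 0.61). The other 4 receptors, Tlr1, Tlr2, Tlr3 and Tlr7, overlapped too, with differences of 0.24, 0.26, 0.60 and 0.43.

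**Figure D3:**
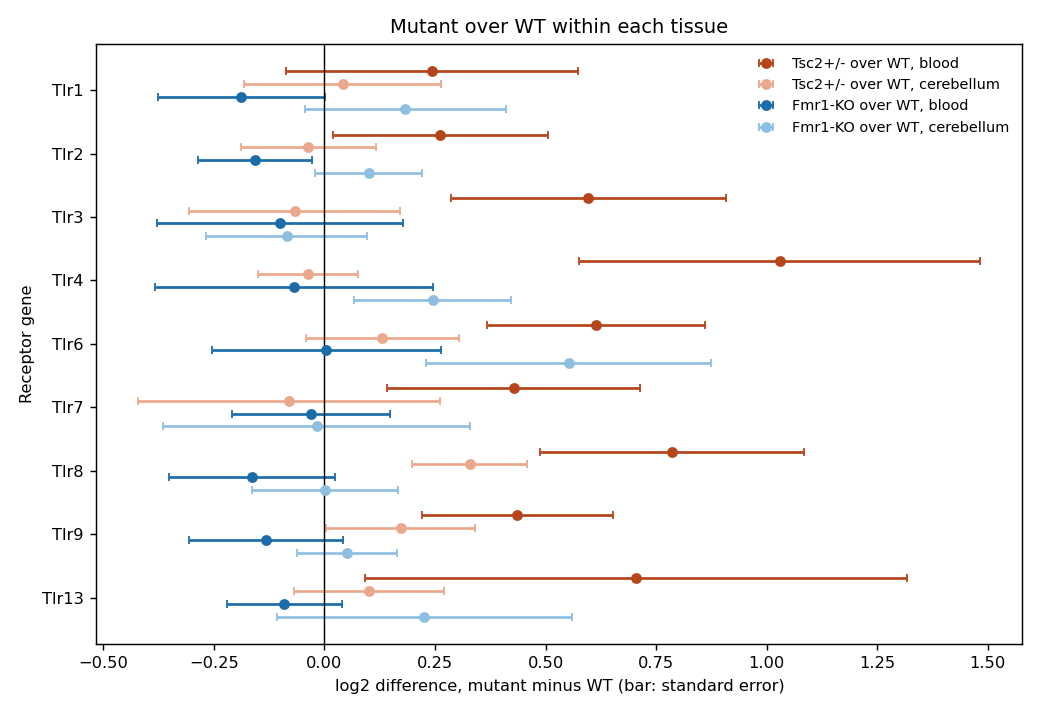
Log2 difference of mutant minus WT for each receptor within each tissue, with points the limma estimate and bars the standard error (Tsc2+/- and WT n = 3 each, Fmr1-KO and WT n = 5 each). The dark red points of Tsc2+/- blood lie right of 0 for all 9 receptors, with a median of 0.60. That median is the value of Tlr3, which in blood lay within the olfactory background.

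Single mice stood out in these values. Tsc2+/- mouse 3 had the highest blood value of its group for 7 of 9 receptors and the lowest for Tlr1 and Tlr9. Of the WT mice of the same experiment, mouse 3 had the lowest value for 7 of 9. Cell type markers differed between the same mice. The summed monocyte markers were 7507, 8603 and 12488 in the Tsc2+/- mice, against 7316, 8134 and 5193 in WT mice. The 7 T cell markers summed to 20902, 16867 and 13803 in Tsc2+/- blood, against 18203, 21930 and 39075 in WT blood, and 0 of 7 had a difference above 0. Their part in the receptors' differences was not tested. Without both low-platelet mice, a comparison chosen after the data were seen, the median was 0.54 with 2 mice a group, 8 of 9 receptors stayed above 0, and Tlr1 was at -0.07.

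**Figure D4:**
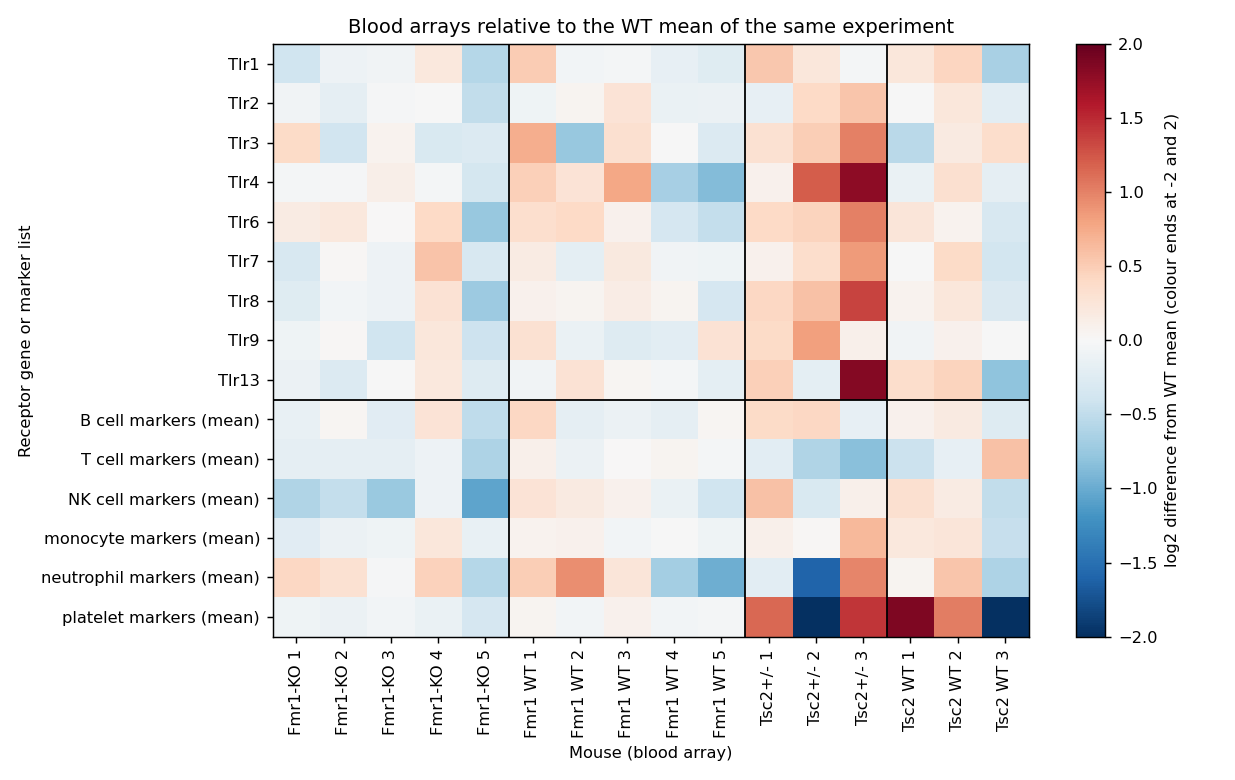
Log2 difference of each blood array from the WT mean of its own experiment, for the 9 receptors (above the line) and the mean log2 level of 6 marker lists (below it), 1 column per mouse. Tsc2+/- mouse 3 has the highest values of its group in 7 of 9 receptor rows, and platelet markers are lowest in Tsc2+/- mouse 2 and in the WT mouse 3.

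In cerebellum the Tsc2+/- receptors gave a median of 0.04, with 5 of 9 above 0 (45.7% of all probe sets) and none at an unadjusted p under 0.01 (1.12%). The median was the value of Tlr1. Of these 5, Tlr1, Tlr6, Tlr8 and Tlr13 were at cerebellum levels within the olfactory background. Tlr8 had 37.9, 42.0 and 39.9 in Tsc2+/- cerebellum, against 27.9, 34.3 and 33.4 in WT cerebellum, without overlap (3.07% of all probe sets were higher without overlap). The log2 difference was 0.33 (SE 0.13, limma p = 0.0431, exact permutation p = 0.1), at a level within the olfactory background. Over both tissues in 1 fit, Tlr8 was the single receptor with an unadjusted p under 0.01, at 0.56 (SE 0.17, limma adjusted p = 0.999), beside 0.436% of all probe sets. All 9 lay above 0, as did 54.1% of all. With the mouse as a random block the unadjusted limma p of Tlr8 was 0.0102, past the threshold no longer. It also missed it, at 0.0108 to 0.0340, without Tsc2+/- mouse 2 or 3 or any 1 of the 3 WT mice.

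Of the 9 Fmr1-KO receptors in blood, 8 had a log2 difference below 0, with a median of -0.10 beside -0.07 over all probe sets, of which 37.2% were above 0. None reached an unadjusted limma p under 0.01, which 0.582% of all probe sets did, and the smallest of the 9 was 0.2516 for Tlr2, so that 0 also had a p under 0.05 (3.5% of all). Tlr8 had 188, 214, 207, 272 and 133 in Fmr1-KO blood, against 235, 230, 247, 229 and 176 in WT blood. The groups overlapped for it and for the other 8. Fmr1-KO mouse 4 had the highest value of its group for 7 of 9 receptors and mouse 5 the lowest for 7 of 9. Their summed B cell markers were 22148 and 13373, the highest and lowest of the 5. The mean levels of T cell, NK cell and neutrophil markers were likewise highest in mouse 4 and lowest in mouse 5. Those of monocyte markers were highest in mouse 4 but lowest in mouse 1, and those of platelet markers lowest in mouse 5 but highest in mouse 3. The mouse 5 array had the lowest median (134) and the lowest correlation with its group (0.835) of all blood arrays. The part of cell types or of the array in these values was not tested.

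In Fmr1-KO cerebellum 7 of 9 receptors lay above 0 (53.8% of all probe sets) with a median of 0.10, none at an unadjusted p under 0.01 (0.197%). Of these 7, Tlr1, Tlr4, Tlr6, Tlr8 and Tlr13 were at cerebellum levels within the olfactory background. Over both tissues 3 of 9 lay above 0 (43.2% of all probe sets), and none had an unadjusted p under 0.01 (0.304%). Tlr6 had 124, 36.1, 36.5, 35.3 and 51.3 in Fmr1-KO cerebellum, against 33.3, 32.2, 40.4, 33.9 and 29.9 in WT cerebellum. Its difference of 0.55 (SE 0.32) became 0.22 (SE 0.14) without Fmr1-KO mouse 1, the array with the highest median. That array also held the highest Tlr2, Tlr4, Tlr9 and Tlr13 values of its group. Tlr3, well above background in this tissue, had a difference of -0.09 (SE 0.18) in Fmr1-KO cerebellum and of -0.07 (SE 0.24) in Tsc2+/- cerebellum.

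Whether a genotype difference depended on tissue or model was tested by interaction terms. Of 36 such tests of the 9 receptors, 0 had an unadjusted limma p under 0.01, and 1 had a p under 0.05. Over all probe sets the shares under 0.01 and 0.05 were 0.537% and 3.28% for genotype by tissue in Fmr1 mice, 0.596% and 3.49% for it in Tsc2 mice, 0.509% and 3.63% for genotype by model in blood, and 0.487% and 2.23% for it in cerebellum. That 1 was Tlr8 in blood, whose difference was 0.95 higher on the log2 scale in Tsc2+/- than in Fmr1-KO mice (SE 0.34, limma adjusted p = 1.0). The median of this interaction over the 9 receptors was 0.61, beside 0.11 over all probe sets.

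The WT mice of the 2 experiments differ in strain background and in experiment, which cannot be told apart. In blood, Tlr9 had 1555, 1747 and 1628 in the Tsc2-experiment WT mice, against 1323, 981, 899, 928 and 1316 in the Fmr1-experiment WT mice, a difference of 0.61 (SE 0.18, limma adjusted p = 0.0843). Tlr2 had 438, 516 and 383 in the Tsc2-experiment WT mice, against 609, 669, 781, 585 and 596 in the Fmr1-experiment WT mice, a difference of -0.54 (SE 0.16, limma adjusted p = 0.0834). Neither overlapped, beside 18.3% of all probe sets higher and 5.77% lower without overlap. Tlr2 was the 1 receptor at an unadjusted p under 0.01, where 12% of all probe sets were, and it was not called in 7 of the 8 fits that left out 1 mouse. All 7 T cell markers were higher in the Tsc2-experiment WT blood at that p, with a median difference of 1.14, and their part was not tested. In cerebellum none of the 9 was called, where 1.29% of all probe sets were, and without the Fmr1-experiment WT mouse 1 Tlr7 was, at 0.94 (SE 0.25).

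In Tsc2+/- blood all 11 accessory genes and all 6 adaptors lay above 0, with medians of 0.55 and 0.49, where 57.1% of all probe sets did with a median of 0.04. No gene of any pathway list had an unadjusted limma p under 0.01 in this comparison. Cd14, the co-receptor of Tlr4 for lipopolysaccharide, named after its values were seen, had 120.5, 547 and 1032 in Tsc2+/- blood, against 100, 131 and 186 in WT blood. Tsc2+/- mouse 1 lay within the WT range, and the difference was 1.60 (SE 0.81, limma adjusted p = 1.0). The other lists lay nearer to all probe sets. Above 0 were 7 of 9 transcription factors with a median of 0.16, 8 of 11 inhibitors with 0.17, 8 of 13 kinases and ubiquitin ligases with 0.15, and 10 of 16 target cytokines with 0.03. In Fmr1-KO blood the accessory genes had a median of -0.14, with 2 of 11 above 0, and the adaptors -0.04, with 3 of 6, where 37.2% of all probe sets lay above 0 with a median of -0.07.

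**Figure D5:**
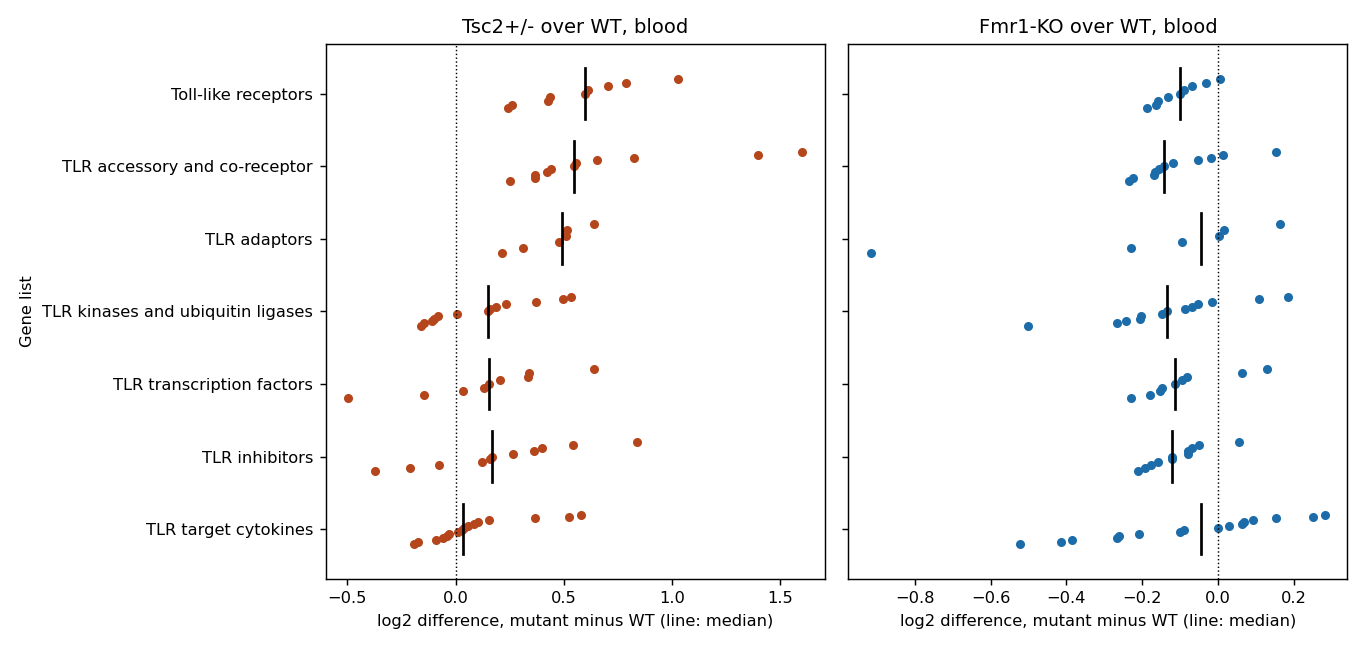
Log2 difference of mutant minus WT in blood for the receptors and 6 lists of pathway genes, each point a gene and each line a list's median (left Tsc2+/- over WT, right Fmr1-KO over WT, with separate x axes). The receptors, accessory genes and adaptors lie above 0 throughout in Tsc2+/- blood, with medians of 0.60, 0.55 and 0.49. The receptor median is the value of Tlr3, which in blood lay within the olfactory background.

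In Tsc2+/- cerebellum 3 of 67 measured pathway genes (4.48%, beside 1.12% of all probe sets) had an unadjusted limma p under 0.01, all lower. Fos, a subunit of the AP-1 transcription factor, had 281, 264 and 269 in Tsc2+/- cerebellum, against 533, 544 and 597 in WT cerebellum, a difference of -1.04 (SE 0.11, limma adjusted p = 0.192). Its partner Jun was at -0.53 (SE 0.11, limma adjusted p = 0.695), and Dusp1, a phosphatase that turns off MAP kinases, at -1.04 (SE 0.18, limma adjusted p = 0.592). All 3 are immediate early genes, and none passed the adjusted threshold. In Fmr1-KO cerebellum the 16 target cytokines all lay above 0, where 53.8% of all probe sets did, with a median of 0.17 and none at a p under 0.01. Their summed intensity was 3229 in Fmr1-KO mouse 1, the array with the highest median, 1821 to 2434 in the other Fmr1-KO mice and 1700.1 to 2187 in WT mice. Without that mouse, a comparison chosen after the data were seen, 10 of 16 lay above 0 with a median of 0.02.

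Across the 16 blood arrays, with each group's mean removed, the receptors fell into different company. Tlr9 was most like Siglecg, Pou2f2 and Cd79b (Pearson r = 0.97, 0.95 and 0.95), and the last encodes a subunit of the B cell receptor. Tlr1 was most like Btla (r = 0.97), a co-inhibitory receptor of lymphocytes, Gimap4 and Gramd3. Tlr13 was most like Cd300a and Cd300lb (both r = 0.97), receptors of myeloid cells, and Msrb1. Tlr7 was nearest Ctss (r = 0.87), an endosomal protease, Tlr8 nearest Rab3d (r = 0.93), Tlr6 nearest Fbxl5 (r = 0.94), Tlr4 nearest Rnf13 (r = 0.92), Tlr2 nearest Cyb5r3 (r = 0.92) and Tlr3 nearest Mrps17 (r = 0.89). The arrays share RNA of all blood cells, and these values are a description of 16 samples in 4 groups.

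Set against the mean level of marker lists in the same way, Tlr9 and Tlr1 followed the B cell markers (both r = 0.82, Spearman rho 0.82 and 0.83). Within the 10 Fmr1 and the 6 Tsc2 arrays the values were 0.88 and 0.70 for Tlr9 and 0.85 and 0.82 for Tlr1. Tlr1 followed the NK cell markers nearly as closely (r = 0.79, rho 0.76), while Tlr9 had no other list above 0.26 over all blood arrays. Within the Fmr1 arrays Tlr9 was at 0.48 for T cell and 0.45 for NK cell markers, and within the Tsc2 arrays at 0.16 and -0.39. Tlr13 followed the monocyte markers (r = 0.91, rho 0.90), at 0.74 and 0.95 within the experiments and 0.84 without the 2 arrays farthest from the median. It also ran with the platelet (r = 0.81, rho 0.61), neutrophil (r = 0.80, rho 0.70) and erythroid markers (r = 0.77, rho 0.81). The platelet value was 0.22 within the Fmr1 arrays and 0.84 within the Tsc2 arrays, of which 2 had the low platelet sums. The neutrophil value was 0.64 within the Fmr1 arrays, and 0.95 within the Tsc2 arrays, where the monocyte markers were level with it. Over all blood arrays Tlr7 and Tlr8 were closest to the monocyte markers (r = 0.79 and 0.77) and Tlr6 to the neutrophil markers (r = 0.80). The next list was at 0.58 for Tlr7 (dendritic cell), 0.71 for Tlr8 (neutrophil) and 0.71 for Tlr6 (NK cell). For Tlr8 and Tlr6 the closest list changed within the experiments. In the Fmr1 arrays Tlr8 was closest to the NK cell markers (0.89, monocyte 0.67), and Tlr6 was at 0.92 for NK cell and neutrophil markers alike. In the Tsc2 arrays Tlr6 was closest to the erythroid (0.97) and monocyte markers (0.95), with neutrophil at 0.75. Among the receptors themselves the closest pairs were the X-linked neighbours Tlr7 and Tlr8 (r = 0.85) and the pair Tlr6 and Tlr8 (r = 0.83), and the most opposed were Tlr9 and Tlr13 (r = -0.41). Tlr3 had no list above 0.37 over all blood arrays, at blood levels within the olfactory background. Its dendritic cell value was 0.18 within the Fmr1 and 0.86 within the Tsc2 arrays, and its platelet value 0.54 and -0.33.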

How the data were processed

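Blood and cerebellum RNA of 16 mice was measured on 32 one-colour Affymetrix Mouse Gene ST arrays. The deposited values are linear PLIER intensities, which the authors made with Affymetrix Power Tools (version not given in the sources used here) after quantile normalization of probes over all arrays, which gives the probes of blood and cerebellum arrays 1 shared distribution. Intensities run from 0.0002 to 314441, and 4.06% of cerebellum and 8.35% of blood values lie under 16, where small changes in intensity give large log2 differences. The array number limits the precision. Of 35556 probe sets, 21789 carry 1 gene name, 1621 several and 12146 none.

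Log2 of each intensity was taken without adding a constant, and limma 3.58.1 (R 4.3.3) fitted every probe set with lmFit and eBayes, with genotype as the term within a tissue, genotype and tissue over both tissues, and interaction terms for differences between tissues or models. p-values are two-sided and were adjusted by Benjamini-Hochberg over all probe sets. A receptor counts as called at an adjusted p under 0.05 for tissue and at the study's unadjusted p under 0.01 otherwise. Exact permutation tests used scipy 1.17.1. The fit was tested on simulated data. The study took blood and cerebellum from each mouse, and arrays with the same label number were taken to be of the same mouse, which the labels do not state. Over 16 such pairs the deviations from group means correlated at -0.07 to 0.08. The 2 arrays of a mouse counted as independent unless a block is named.

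The text names all members, up to 4 genes of each pathway list at an unadjusted p under 0.01 within a tissue, and the 3 genes most like each member. The members and lists were chosen with earlier results of these data known. Nothing in the labels gives a scan batch.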

Additional observations from a re-analysis of the deposited data

Results flagged for a closer look

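Over 36 combinations of a receptor with a group of 5 mice, 5 single values stood apart from the other 4 mice by Dixon's criterion, which chance meets in about 1 of 20 groups. In cerebellum of Fmr1-KO mouse 1, Tlr4 was 107 (others 58.7 to 68.0) and Tlr9 was 185 (others 147 to 157), on the array with the highest median. In cerebellum of the Fmr1-experiment WT mouse 1, Tlr3 was 422 (others 226 to 260). In blood of the Fmr1-experiment WT mice, Tlr1 was 880 in mouse 1 (others 520 to 600), and Tlr8 was 176 in mouse 5 (others 229 to 247).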

How the results depend on the processing

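Each result was recomputed with 16 added before log2, quantile normalization within a tissue, centring on array medians, dim probe sets left out, eBayes with trend and robust, all 32 arrays in 1 fit, the methods' t-test, a replicate block, and each mouse left out. Of 2053 values of single receptors, 2014 kept their side of the threshold, 23 lost and 16 gained a call and 0 called values reversed. Among the 2014, 131 uncalled values changed sign. Every receptor has 1 probe set, so that another choice of probe set could not be made.

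The median of cerebellum over blood was -3.32 in the Fmr1-experiment WT mice after centring, and in the Tsc2-experiment WT mice -3.14 with 16 added, -3.41 after quantile normalization and -3.92 after centring. Tsc2+/- over WT in blood had 2 receptors at an unadjusted limma p under 0.01 (Tlr4 and Tlr8) with all arrays in 1 fit. Over both tissues the count of 1 became 0 with 16 added, after quantile normalization, after centring, with the mouse as a random replicate block and without both low-platelet mice. In blood of WT mice of the 2 experiments the count of 1 became 2 without dim probe sets, with trend and robust and with all arrays in 1 fit, and 0 with the replicate block by number; with 16 added and in the methods' t-test it stayed 1, but Tlr9 took the place of Tlr2. The genotype by model interaction in blood had a count of 1 with all arrays in 1 fit.

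With each mouse left out, counts ran 0 to 1 for Tsc2+/- over WT in blood and over both tissues, 0 to 1 for WT of the 2 experiments in blood and in cerebellum, 0 to 1 for the genotype by tissue interaction in Tsc2 mice, where Tlr4 passed without Tsc2+/- mouse 1, and 0 to 2 for the genotype by model interaction in blood. Medians ran -3.64 to -3.43 for cerebellum over blood in the Tsc2-experiment WT mice and -0.60 to -0.23 for the genotype by tissue interaction in Tsc2 mice, where -0.23 is without the WT mouse 3. The cause of these shifts was not tested. The number block changed no other count. Mice of 2 genotypes share only a number (r -0.09 to 0.23, 4 of 16 pairs above 0.1). The target cytokines above 0 in Fmr1-KO cerebellum went down to 10 of 16 without Fmr1-KO mouse 1. With 3 mice a group, no exact permutation p can go below 0.1.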
